A study of Mus musculus with 12 samples.

Results

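The genes described are 10 members of the WNT pathway: 7 secreted antagonists (Wif1, Sfrp1, Sfrp2, Sfrp4, Frzb, Dkk2 and Dkk3), the ligand Wnt16, and a pair of transcriptional readouts of the pathway (Axin2 and Lef1). They were taken by name from the 49315 genes of the count tables, and all 10 were among the 17416 genes with enough counts to be tested. The list of names was the whole rule of choice, and it was drawn up with earlier results of these data known. Counts of these genes set beside shares of all genes are therefore descriptions. The cells were MAFs, that is mouse adult fibroblasts in primary culture, taken from ear tissue. The wild type (WT) mice were C57BL6/J adult females, and the others were Bmal1-/- mice (KO), whose sex, age and strain were not given in the sources used here. Bmal1, annotated as Arntl, encodes a core activator of the circadian clock.

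There were 4 groups of 3 libraries. WT control and KO control cells were sham irradiated, and WT senescent and KO senescent cells had been driven into senescence with 20 Gy of X-rays. Per the authors' methods, irradiated cells were then kept in culture for weeks. A matching time for control cells was not given in the sources used here, so time in culture cannot be told apart from irradiation. All 4 groups grew at 3% oxygen, all received 100 nM dexamethasone for 2 h to set their clocks to a common phase, and all were collected 12 h afterwards. The deletion was present in every cell type of the mouse, and the number of animals behind the 3 libraries of a group was not given in the sources used here, so p-values measure only the spread between these libraries.

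WNT proteins are secreted, lipid-modified ligands that bind Frizzled receptors together with the co-receptors LRP5 and LRP6. Binding stabilises β-catenin, which enters the nucleus and turns on target genes with TCF/LEF factors. Secreted antagonists act outside the cell. The SFRP proteins, FRZB and WIF1 bind the ligand itself, whereas DKK proteins of the DKK1 type bind LRP5 and LRP6. In skin and bone the balance of ligands and antagonists is known to control hair cycling, matrix formation and regeneration.

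Total counts lay between 23923030 and 31736083 per library, at which 3 counts equalled 0.101 to 0.135 CPM (reads assigned to a gene per 1000000 assigned reads, after TMM scaling of library size), and intervals and spreads cover counting and library variation only. Arntl stood at 29.8 to 37.4 CPM in WT libraries and at 11.8 to 27.5 CPM in KO libraries, so no KO library reached the lowest WT library, although reads of the gene were still counted. Arntl was called lower in KO control cells (log2 difference -1.26, adjusted p = 2e-09). In KO senescent cells, at 25.3 to 27.5 CPM, it was lower by 1.36-fold (-0.44, adjusted p = 0.000329), under the size limit of a call, after a 2.02-fold rise with senescence in KO (adjusted p = 1.96e-09). The proliferation marker Mki67 was at 506 to 672 CPM in control and 16.8 to 46.5 CPM in senescent libraries, and Cdkn1a, which encodes the cell cycle inhibitor p21, was at 152 to 238 and 604 to 705 CPM. All 9 fibroblast markers examined averaged over 1 CPM, with sums of 20020 to 20830 CPM in WT control, 9844 to 10250 in WT senescent, 24980 to 26340 in KO control and 11730 to 12150 in KO senescent cells. Collagen genes carried this fall (Col1a1 averaged 7323 and 1750 CPM in WT control and senescent libraries), while Dcn, which encodes the matrix proteoglycan decorin, averaged 28.9 and 299 CPM in WT and 25.0 and 272 CPM in KO, and Thy1, Pdgfrb and Lum were also higher on average in senescent cells of both genotypes. Chondrocyte markers were also high. Of 9, 8 averaged over 1 CPM (Matn1 was near 0), and their sum was 7361 to 9162 CPM in WT control, 1950 to 2252 in WT senescent, 4793 to 6646 in KO control and 612 to 709 in KO senescent cells. Other lists were far lower, and some of them also moved. The ranges of the melanocyte, macrophage and endothelium sums overlapped between control and senescent libraries in each genotype. Keratinocyte markers summed to 10.4 to 15.02 CPM in control and 18.6 to 23.8 CPM in senescent libraries, adipocyte markers, mainly Fabp4, to 6.87 to 9.75 and 15.9 to 23.2 CPM, and skeletal muscle markers, mainly Acta1, to 22.7 to 58.6 and 13.6 to 21.9 CPM. The part of these marker changes in any result below was not tested. In these bulk samples, a smaller share of cells of a type and less RNA per cell cannot be told apart. The KO and WT counts came in separate tables, so a difference in handling between the tables cannot be told apart from genotype.

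RefSeq promoters (GRCm38.p6, 250 bases before to 50 after the start) were found for 7 of the 10 genes, 10 promoters in all, and none were found for Sfrp1, Sfrp4 and Dkk3. They are shown for Wif1, which had the largest change of the set in either genotype, for Wnt16 and Axin2, whose senescence response differed between genotypes, and for the fourth listed start of Lef1. Capitals mark the E-box CACGTG, the sequence bound by BMAL1 and its partner CLOCK and by other factors of the same class.

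Wif1 promoter, chr10:121033754-121034053, plus strand: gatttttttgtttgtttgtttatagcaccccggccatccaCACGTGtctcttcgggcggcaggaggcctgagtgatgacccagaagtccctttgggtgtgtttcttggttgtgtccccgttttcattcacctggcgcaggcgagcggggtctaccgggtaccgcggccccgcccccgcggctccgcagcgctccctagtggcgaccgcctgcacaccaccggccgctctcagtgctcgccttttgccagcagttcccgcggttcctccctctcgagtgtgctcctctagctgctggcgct
Wnt16 promoter, chr6:22287977-22288276, plus strand: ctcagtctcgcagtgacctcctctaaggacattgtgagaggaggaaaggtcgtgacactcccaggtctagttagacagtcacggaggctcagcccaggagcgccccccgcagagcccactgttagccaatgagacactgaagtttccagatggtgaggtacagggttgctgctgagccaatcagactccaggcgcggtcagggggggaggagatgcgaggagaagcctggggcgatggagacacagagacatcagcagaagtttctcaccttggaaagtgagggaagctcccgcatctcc
Axin2 promoter, chr11:108920099-108920398, plus strand: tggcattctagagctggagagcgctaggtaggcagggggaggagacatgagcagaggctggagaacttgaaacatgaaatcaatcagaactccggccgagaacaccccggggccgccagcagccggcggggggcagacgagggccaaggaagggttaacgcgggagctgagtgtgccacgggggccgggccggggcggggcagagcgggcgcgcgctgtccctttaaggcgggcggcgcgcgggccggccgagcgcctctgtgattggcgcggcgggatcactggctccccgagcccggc
Lef1 promoter 4, chr3:131156044-131156343, plus strand: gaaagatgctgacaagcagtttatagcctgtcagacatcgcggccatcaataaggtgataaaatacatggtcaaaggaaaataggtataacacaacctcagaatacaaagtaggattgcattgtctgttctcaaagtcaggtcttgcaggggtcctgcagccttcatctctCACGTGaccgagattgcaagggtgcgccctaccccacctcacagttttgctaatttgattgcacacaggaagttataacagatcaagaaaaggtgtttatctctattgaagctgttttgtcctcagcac

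The E-box began at position -210 from the start in Wif1 and at -79 in the fourth Lef1 promoter, and it was in none of the other 8 promoters. Of all 32851 promoters of 300 bases, 7.15% held it. On either strand, the AP-1 motif TGANTCA (in 7.81% of all promoters) and the TCF/LEF motif CTTTGAT, read ATCAAAG on the other strand (3.73%), had no match in any of the 10 promoters. These matches describe letters in a window and not binding.

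Senescent and control cells were compared within each genotype to see which of the genes moved when MAFs became senescent. In WT cells 9 of the 10 genes were higher in senescent cells, and Wnt16 was the exception. In KO cells all 7 antagonists and both readouts were higher and Wnt16 was lower. A gene is said to have risen or fallen where its adjusted p (edgeR's quasi-likelihood test, Benjamini-Hochberg over all genes tested) was under 0.05, and is termed called where its log2 fold change was also over 1 in size. By that rule 8 of the 10 were called in WT, all higher, against 17.4% of all genes tested called, 11.6% higher and 5.9% lower. In KO, 6 were called higher and 1 lower, against 18.8% called, 11.2% higher and 7.58% lower. The median log2 fold change of the 10 genes was 1.35 in WT and 1.33 in KO, beside 0.02 and -0.003 over all genes tested. On p alone 9 of the 10 genes passed in WT, where 56.2% of all genes did (29.2% higher and 27.0% lower), and all 10 passed in KO, where 57.1% did (28.5% higher and 28.6% lower). Senescent and control libraries did not overlap for 9 of the 10 genes in WT and for all 10 in KO, beside 63.2% and 61.6% of all genes tested.

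**Figure D1:**
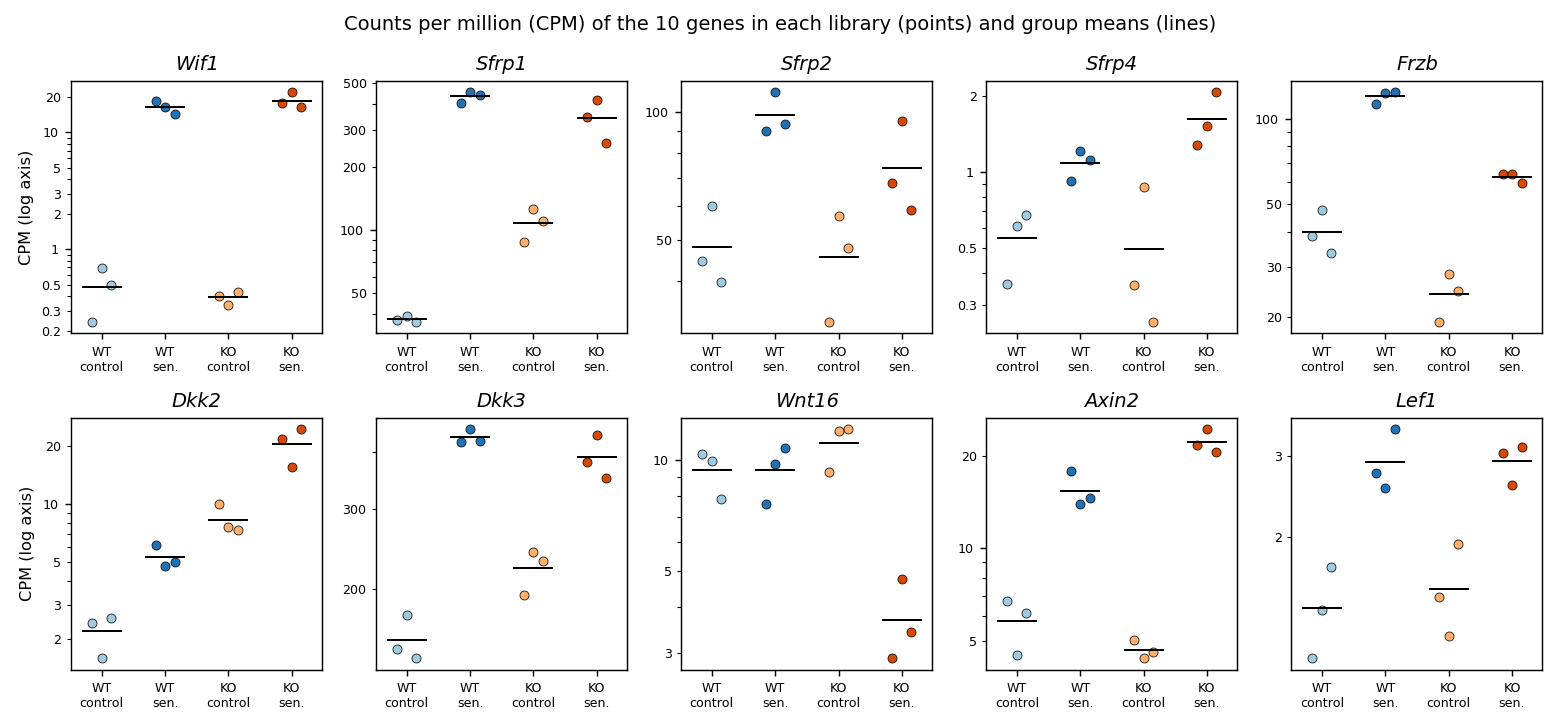
CPM (log axis) of each of the 10 genes in the 12 libraries, 1 point per library in order of replicate number, with lines at group means (sen., senescent). Each of the 7 antagonists and both readouts sits higher in senescent than in control libraries of the same genotype, while Wnt16 is low only in the KO senescent libraries, at 2.89 to 4.75 CPM.

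Wif1 (chr10:121033960-121100650), which encodes WNT inhibitory factor 1, was near the floor in control cells. WT control libraries 1 to 3 had 0.241, 0.692 and 0.497 CPM, and KO control libraries had 0.40, 0.337 and 0.429 CPM, from 6 to 17 reads each. WT senescent libraries had 18.5, 16.6 and 14.3 CPM, and KO senescent libraries had 17.8, 21.9 and 16.5 CPM. All 6 senescent libraries thus lay far above all 6 control libraries, and the genotypes overlapped in both states. Wif1 rose 34.4-fold in WT (log2 fold change 5.10 ± 0.22 SE, adjusted p = 3.52e-14) and 48.1-fold in KO (5.59 ± 0.22, adjusted p = 8.41e-15). Counted from the highest fold change, it ranked 64 of 17416 genes in WT and 68 in KO. The responses differed by 0.48 ± 0.40 on the log2 scale (adjusted p = 0.433).

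Sfrp1 (chr8:23411502-23449632), a secreted Frizzled-related protein that binds WNTs through a Frizzled-like domain, had the largest interaction among the 10 genes. WT control libraries had 37.1, 39.1 and 36.6 CPM, whereas KO control libraries had 87.8, 126 and 110 CPM. WT senescent libraries reached 404, 452 and 442 CPM and KO senescent libraries 347, 416 and 259 CPM. Every KO control library was above every WT control library, while the senescent libraries of the genotypes overlapped. Sfrp1 rose by a log2 fold change of 3.52 ± 0.20 in WT (11.5-fold, adjusted p = 3.09e-07) and 1.66 ± 0.18 in KO (3.15-fold, adjusted p = 3.9e-05). In control cells it was 2.87-fold higher in KO (log2 difference 1.52 ± 0.19, adjusted p = 0.000851), and in senescent cells the difference was -0.34 ± 0.17 (adjusted p = 0.199). Without KO senescent library 2 that last difference was -0.51 (adjusted p = 0.0459).

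Sfrp2 (chr3:83766321-83774316), of the same family, ranged from 39.96 to 60.1 CPM in WT control, 90.2 to 111 in WT senescent, 32.2 to 57.0 in KO control and 59.0 to 95.0 in KO senescent libraries. It rose 2.04-fold in WT (log2 fold change 1.03 ± 0.26, adjusted p = 0.00864). In KO the change was 0.69 ± 0.26 with an adjusted p of 0.049, just inside the threshold. The WT rise stayed past the threshold on p but was under 1 on the log2 scale without WT control library 1 (0.97), WT control library 3 (0.91) or WT senescent library 2 (0.93). The KO rise missed the threshold without KO control library 1 (0.49, adjusted p = 0.142), KO control library 3 (0.72, adjusted p = 0.0948), KO senescent library 1 (0.76, adjusted p = 0.0697) or KO senescent library 2 (0.47, adjusted p = 0.173), and with no filter on low counts (adjusted p = 0.0985). It passed without KO control library 2 (adjusted p = 0.0338) or KO senescent library 3 (adjusted p = 0.0375). Other settings that it passed were library totals (adjusted p = 0.0218), DESeq2's size factors (adjusted p = 0.0445), DESeq2's Wald test (adjusted p = 0.0182) and a replicate block (adjusted p = 0.00239). Exons of Sfrp2 overlap 1 other annotated gene, Gm26771, and use of strand in counting was not stated, so its counts are uncertain.

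Sfrp4 (chr13:19623104-19632994), a family member better known from bone and uterus, had the lowest mean level per length among the antagonists in all 4 groups. Its libraries held 0.362 to 0.677 CPM in WT control, 0.919 to 1.21 in WT senescent, 0.258 to 0.876 in KO control and 1.27 to 2.06 in KO senescent cells, from 6 to 61 reads each. Senescent libraries were above control libraries in both genotypes. It rose 3.14-fold in KO (log2 fold change 1.65 ± 0.39, adjusted p = 0.00101). The change was 1.36 without KO control library 3 (adjusted p = 0.00787). It was 2.37 without KO control library 2, the highest of its group (adjusted p = 9.84e-05), and the interaction was then 1.39 (adjusted p = 0.11). In WT the change was 0.98 ± 0.40 (adjusted p = 0.0436), which DESeq2's Wald test placed at an adjusted p of 0.0709. The WT change also missed the threshold without WT control library 1 (0.74, adjusted p = 0.172), WT control library 2 (1.07, adjusted p = 0.0631), WT senescent library 2 (0.89, adjusted p = 0.116) or WT senescent library 3 (0.96, adjusted p = 0.0872).

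Frzb (chr2:80411970-80447625, minus strand), also called Sfrp3 and known from developing cartilage, had 38.5, 47.8 and 33.7 CPM in WT control and 19.3, 28.4 and 24.7 CPM in KO control libraries. In senescent libraries it had 113, 123 and 124 CPM in WT and 63.8, 63.8 and 59.2 CPM in KO. In each state the KO libraries were all below the WT libraries. Frzb rose 2.99-fold in WT (log2 fold change 1.58 ± 0.14, adjusted p = 1.45e-06) and 2.57-fold in KO (1.36 ± 0.14, adjusted p = 7.48e-06). The KO level was lower by a log2 difference of -0.72 ± 0.14 in control cells (adjusted p = 0.00722) and of -0.94 ± 0.13 in senescent cells (adjusted p = 0.000363), both past the test on p and under the size limit of a call. The summed chondrocyte markers were likewise lower in every KO library than in every WT library of the same state, but in both genotypes they were lower in senescent libraries, where Frzb was higher. Their part in the Frzb difference was not tested.

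Dkk2 (chr3:132085292-132180304), a secreted protein that binds LRP6, differed between genotypes in both states. WT control libraries had 2.41, 1.59 and 2.57 CPM and KO control libraries 10.0, 7.58 and 7.30 CPM. WT senescent libraries had 6.16, 4.78 and 4.98 CPM and KO senescent libraries 21.6, 15.5 and 24.4 CPM. The lowest KO control library was above the highest WT senescent library. Dkk2 was 3.79-fold higher in KO than in WT control cells (log2 difference 1.92 ± 0.21, adjusted p = 7.13e-06) and 3.85-fold higher in KO than in WT senescent cells (1.95 ± 0.18, adjusted p = 6.34e-07). Among all genes tested these differences ranked 111 and 42 from the top. With senescence it rose by 1.28 ± 0.22 in WT (adjusted p = 7.5e-05) and 1.31 ± 0.17 in KO (adjusted p = 4.81e-06), and the responses differed by 0.02 ± 0.30 (adjusted p = 0.968).

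Dkk3 (chr7:112116017-112159057, minus strand), a divergent DKK family member whose binding to LRP proteins is less clear, was the most abundant of the 10 per length in all 4 groups. WT control libraries had 148, 176 and 141 CPM and KO control libraries 195, 242 and 231 CPM. WT senescent libraries had 420, 448 and 422 CPM and KO senescent libraries 380, 435 and 351 CPM. The genotypes did not overlap in control cells and overlapped in senescent cells. Dkk3 rose 2.77-fold in WT (log2 fold change 1.47 ± 0.10, adjusted p = 3.38e-08) and 1.75-fold in KO (0.80 ± 0.10, adjusted p = 1.21e-05), which was under the size limit of a call. In control cells it was 1.44-fold higher in KO (0.52 ± 0.10, adjusted p = 0.00396), and in senescent cells the difference was -0.15 ± 0.10 (adjusted p = 0.322). Its start lies 1048 kb from that of Arntl on chromosome 7. Of 19 tested genes with a start within 2 Mb of Arntl, none was called between KO and WT in either state, and 5 (26.3%) passed on p alone in each, beside 13.0% of all genes in control and 23.7% in senescent cells. The 19 include Dkk3 itself, which was among the 5 in control cells and not among those in senescent cells. The part of sequence linked to the deleted allele in the Dkk3 difference was not tested.

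**Figure D2:**
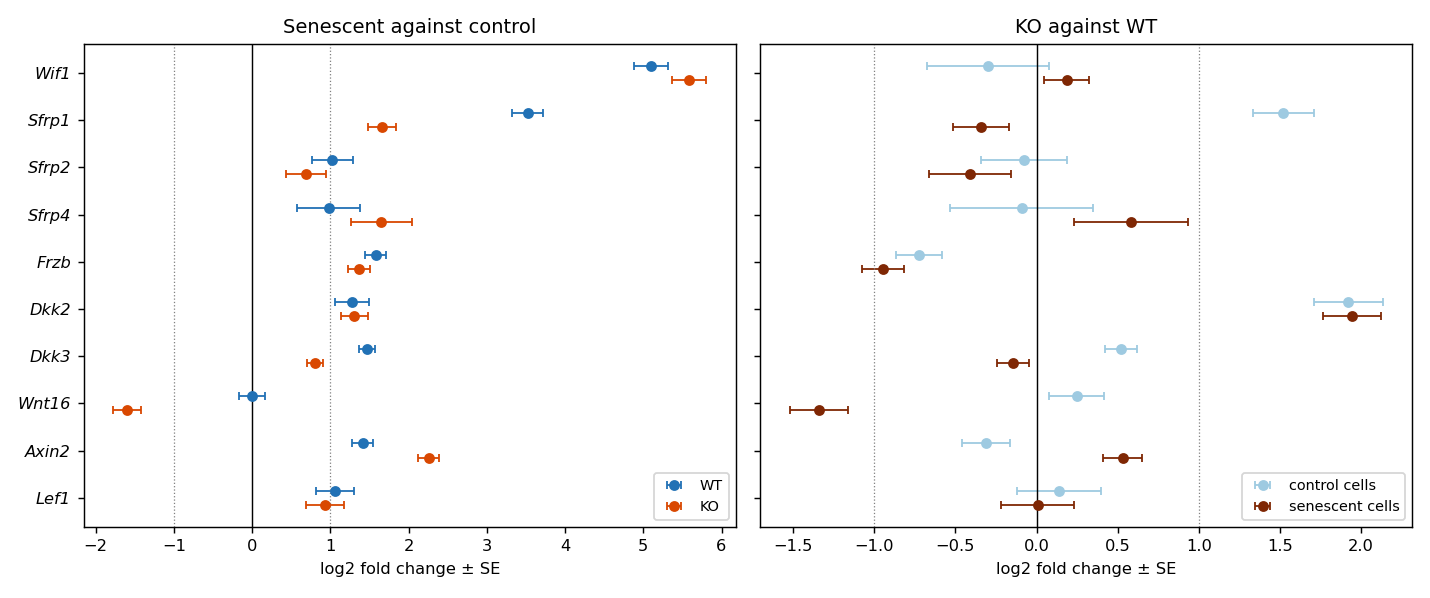
Log2 fold changes (points) with SE (bars) of the 10 genes from the fit over all 12 libraries, for senescent against control cells in each genotype (left) and KO against WT in each state (right). Dotted lines mark a log2 fold change of 1 in either direction. Sfrp1 shows the widest gap between WT (3.52) and KO (1.66), and Dkk2 is near 1.9 in both states on the right.

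Expressed per kilobase of exon, the 7 antagonists summed to 90.5 ± 12.8 CPM per kb in WT control cells (mean ± SD, n = 3), 318 ± 15.5 once WT cells were senescent, 122 ± 18.6 in KO control cells and 261 ± 39.5 in KO senescent cells. Senescent and control libraries did not overlap in either genotype. Dkk3 supplied 51.2% of the sum in WT control, 40.3% in WT senescent, 54.5% in KO control and 44.6% in KO senescent cells. The share of Sfrp1 was 9.60% in WT control cells and 31.1% in WT senescent cells, while with the gene deleted it was 20.2% and 29.6%. Wif1, in spite of its fold change, supplied 2.14% of the sum in WT senescent and 2.96% in KO senescent cells.

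The order of levels per length changed between groups. In WT control cells it ran from Dkk3 (46.2 CPM per kb) through Sfrp2 (22.4), Frzb (12.3), Sfrp1 (8.61), Wnt16 (2.15), Axin2 (1.05) and Dkk2 (0.592) to Wif1 (0.196), Lef1 (0.159) and Sfrp4 (0.132). The ranges of the last 3 overlapped and those of all other neighbours did not. In WT senescent cells Sfrp1 (98.9) was second to Dkk3 (128) and Wif1 (6.79) was the fifth, with no overlap between neighbours. In KO control cells Sfrp1 (24.7) overlapped with Sfrp2 (21.2), Wnt16 (2.56) with Dkk2 (2.24), and Lef1, Wif1 and Sfrp4 with their neighbours. In KO senescent cells the order of the first 5 was that of WT senescent cells, Dkk2 (5.53) overlapped with Axin2 (4.06), and Wnt16 (0.845) had dropped to the eighth place.

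**Figure D3:**
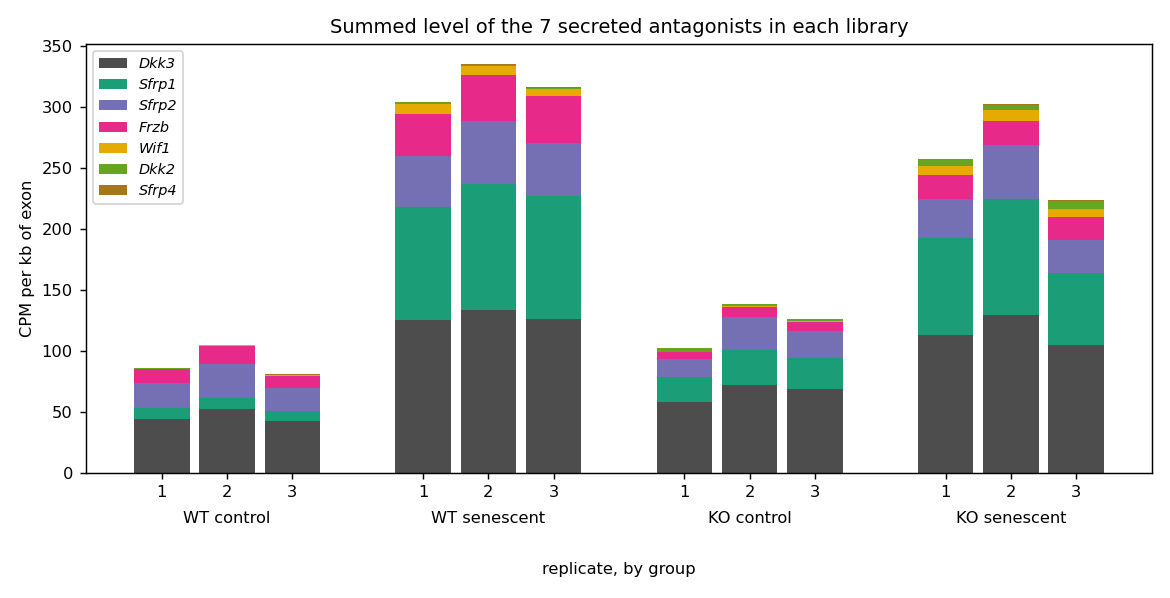
Summed level of the 7 secreted antagonists in each of the 12 libraries, in CPM per kilobase of exon, with bars stacked by gene. The sums average 90.5 in WT control, 318 in WT senescent, 122 in KO control and 261 in KO senescent libraries, and Dkk3 and Sfrp1 are the main layers in senescent cells.

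Wnt16 (chr6:22288227-22298522), a WNT ligand known from cortical bone, was the 1 gene of the set that fell. WT control libraries had 10.4, 9.94 and 7.86 CPM, and WT senescent libraries had 7.62, 9.77 and 10.8 CPM. KO control libraries had 9.28, 12.0 and 12.2 CPM, and KO senescent libraries had 2.89, 4.75 and 3.41 CPM. The 3 KO senescent libraries lay below all 9 others, which overlapped with each other. Wnt16 fell 3.02-fold in KO (log2 fold change -1.59 ± 0.18, adjusted p = 2.88e-07) and changed by -0.01 ± 0.17 in WT (adjusted p = 0.983). With library totals in place of TMM scaling, that WT value was 0.16. In senescent cells it was 2.54-fold lower in KO than in WT (log2 difference -1.34 ± 0.18, adjusted p = 2.09e-05), and in control cells the difference was 0.25 ± 0.17 (adjusted p = 0.385).

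Axin2 (chr11:108920349-108950783) encodes a scaffold of the complex that degrades β-catenin and is itself a direct target of the pathway. WT control libraries had 6.76, 4.48 and 6.14 CPM, and KO control libraries had 5.04, 4.38 and 4.59 CPM. WT senescent libraries had 17.9, 13.9 and 14.6 CPM, and KO senescent libraries had 21.8, 24.5 and 20.7 CPM. Every KO senescent library was above every WT senescent library, while control libraries overlapped. Axin2 rose 2.67-fold in WT (log2 fold change 1.42 ± 0.14, adjusted p = 1.31e-08) and 4.79-fold in KO (2.26 ± 0.14, adjusted p = 8.26e-12). In senescent cells it was 1.44-fold higher in KO (0.53 ± 0.12, adjusted p = 0.00273), and in control cells the difference was -0.31 ± 0.15 (adjusted p = 0.19), or -0.47 (adjusted p = 0.0376) without WT control library 2. Its exons overlap 1 other annotated gene, Gm11670.

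Lef1 (chr3:131110471-131224356) encodes a DNA-binding partner of β-catenin and is also a pathway target. It had 1.09, 1.38 and 1.72 CPM in WT control, 2.76, 2.56 and 3.43 in WT senescent, 1.48, 1.21 and 1.93 in KO control and 3.05, 2.59 and 3.14 in KO senescent libraries. Senescent libraries were above control libraries in both genotypes, and the genotypes overlapped in both states. Lef1 rose 2.09-fold in WT (log2 fold change 1.06 ± 0.24, adjusted p = 0.000862) and 1.91-fold in KO (0.93 ± 0.24, adjusted p = 0.00223). These values straddle the size limit of a call. The WT value was 0.91 without WT control library 1 and 0.93 without WT senescent library 3, and the KO value was 1.12 without KO control library 3 and 1.01 without KO senescent library 2. Exons of Lef1 overlap 1 other annotated gene, Gm43352.

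The interaction, the KO senescence response less the WT response on the log2 scale, asked whether BMAL1 loss altered the response. Of the 10 genes, 4 passed on p (Sfrp1, Dkk3 and Wnt16 lower, Axin2 higher) and 2 were called, both lower. Of all genes tested, 20.9% passed on p (9.24% higher and 11.7% lower) and 3.66% were called (1.15% higher and 2.51% lower). The response was lower in KO by 1.87 ± 0.26 for Sfrp1 (interaction -1.87, adjusted p = 0.00126). It was also lower for Wnt16 (-1.59 ± 0.25, adjusted p = 0.000199) and for Dkk3 (-0.67 ± 0.14, adjusted p = 0.0049), and higher for Axin2 (0.84 ± 0.19, adjusted p = 0.00379). These 4 responses differed in form. For Sfrp1 and Dkk3 the control levels were higher in KO and the senescent levels of the genotypes overlapped, whereas for Wnt16 and Axin2 the control levels overlapped and the senescent levels did not. For the other 6 genes the interaction lay between -0.34 ± 0.37 for Sfrp2 and 0.67 ± 0.57 for Sfrp4, with adjusted p from 0.433 to 0.968.

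Between genotypes, KO control cells differed from WT control cells in 4 of the 10 genes on p, of which Sfrp1 and Dkk2 were called higher. Of all genes tested, 13.0% passed on p (8.07% higher and 4.96% lower) and 2.54% were called (1.36% higher and 1.18% lower). In senescent cells 4 passed on p and 2 were called, Dkk2 higher and Wnt16 lower. Of all genes, 23.7% passed on p (11.9% higher and 11.8% lower) and 3.48% were called (1.29% higher and 2.19% lower). The libraries of the genotypes did not overlap for 4 genes in control cells and for 5 in senescent cells, beside 25.9% and 42.0% of all genes tested. Medians over the 10 genes were 0.03 in control and -0.07 in senescent cells, beside 0.01 and -0.02 over all genes tested. These genotype comparisons share libraries with the senescence comparisons and are not independent of them.

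Over the 12 libraries, the gene whose log2 CPM was most like that of Wif1 was Atp6v1f, a subunit of the proton pump of acidic organelles (Pearson r = 0.995, among 10945 genes of at least 5 CPM). For Dkk3 it was Pcmtd1 (r = 0.995), and Sfrp1 was the next in order (r = 0.991). Frzb was most like Trf, which encodes transferrin (r = 0.996), Sfrp2 like Timp3, an inhibitor of matrix metalloproteinases (r = 0.968), Dkk2 like Calcrl, a receptor for adrenomedullin and CGRP (r = 0.972), and Wnt16 like Nek6, a mitotic kinase (r = 0.984). Axin2 was most like Slc23a2, a vitamin C transporter (r = 0.995), Lef1 like Clcn6 (r = 0.976), Sfrp4 like Manbal (r = 0.955) and Sfrp1 like AC149090.1 (r = 0.997). All these values describe 12 libraries in 4 groups, so that 2 genes with similar group means give a high r whatever their function.

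The other genes of the pathway were described by 6 lists. They held 79 genes, all measured, of which 65 were tested. Among other secreted antagonists, 4 of 10 had enough counts to be tested, of which 3 rose and 1 fell in WT (29.2% and 27.0% of all genes) and 1 rose and 1 fell in KO (28.5% and 28.6% of all genes). Notum, an enzyme that strips the lipid from WNT proteins, rose from 2.29 to 5.68 CPM in WT (log2 fold change 1.30 ± 0.20, adjusted p = 9.16e-06) and from 3.27 to 7.53 CPM in KO (1.20 ± 0.19, adjusted p = 1.23e-05). Draxin, an axon guidance protein with a DKK-like domain, rose in WT from 0.163 to 1.61 CPM (adjusted p = 1.31e-05). In KO it was 1.13 CPM in control and 1.41 CPM in senescent cells (adjusted p = 0.515), and the interaction was -2.93 ± 0.65 (adjusted p = 0.00304). Igfbp4, the most abundant of the list, rose from 1200 to 1500 CPM in WT (0.32 ± 0.05, adjusted p = 7.13e-06), under the size limit of a call. In KO it averaged 1353 CPM in control and 1296 CPM in senescent cells (adjusted p = 0.283), and its interaction was -0.38 ± 0.07 (adjusted p = 0.000477). Sfrp5, the 1 that fell, went from 1.57 to 0.403 CPM in WT (adjusted p = 0.000474) and from 0.647 to 0.0971 CPM in KO (adjusted p = 0.000409). Dkk1, Dkk4, Sost and Cer1, well-known antagonists in other tissues, averaged at or under 0.164 CPM in each group.

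Of 18 other WNT ligands, 14 were tested. In WT, 10 rose and 1 fell (29.2% and 27.0% of all genes), and in KO 12 rose and 2 fell (28.5% and 28.6% of all genes). The median over the 14 was 1.28 on the log2 scale in WT and 1.49 in KO, also with Wnt1, at 0 in WT control cells, set at its bound from the floor. Wnt5a, the most abundant of the list, rose from 52.0 to 106 CPM in WT (log2 fold change 1.03 ± 0.05, adjusted p = 1.22e-12). In KO it rose from 68.5 to 142 CPM (1.05 ± 0.05, adjusted p = 5.54e-13). Wnt5b fell in both genotypes, from 9.09 to 3.61 CPM in WT (adjusted p = 2.32e-08) and from 18.1 to 13.7 CPM in KO (adjusted p = 0.00497). Wnt11, a ligand that mainly acts without β-catenin, rose from 4.79 to 11.1 CPM in WT (log2 fold change 1.21 ± 0.14, adjusted p = 2.15e-07) and from 2.92 to 19.5 CPM in KO (2.75 ± 0.15, adjusted p = 8.94e-13), with an interaction of 1.54 ± 0.20 (adjusted p = 3.28e-05). Wnt4, known from kidney and female reproductive tract development, moved in opposite directions. It rose from 0.746 to 3.50 CPM in WT (adjusted p = 5.44e-08) and fell from 7.75 to 4.24 CPM in KO (log2 fold change -0.87 ± 0.18, adjusted p = 0.000314), with an interaction of -3.10 ± 0.30 (adjusted p = 1.05e-06). Wnt10a, known from skin appendages, averaged 1.70 CPM before and 1.97 CPM after senescence in WT and rose from 0.931 to 2.64 CPM in KO (interaction 1.29 ± 0.37, adjusted p = 0.0157). Wnt3, which signals through β-catenin, had 1 read in the 3 WT control libraries together and 4 in the 3 KO control libraries, and 152 and 184 reads in the WT and KO senescent libraries. It passed the test in both genotypes (adjusted p = 5.4e-08 and 3.84e-08). Wnt2 rose from 0.347 to 0.898 CPM in WT (adjusted p = 0.0114) and from 0.471 to 2.74 CPM in KO (adjusted p = 7.2e-06), and Wnt9a rose from 1.55 to 4.24 CPM in WT (adjusted p = 1.39e-05) and from 2.49 to 6.60 CPM in KO (adjusted p = 7.03e-06).

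Of 16 tested receptors and co-receptors, 5 rose and 5 fell in WT (29.2% and 27.0% of all genes), and 4 rose and 8 fell in KO (28.5% and 28.6% of all genes). The WT counts were near those shares. The median was -0.002 in WT and -0.33 in KO. Fzd10 rose most, from 0.397 to 4.31 CPM in WT (log2 fold change 3.44 ± 0.30, adjusted p = 3.02e-09) and from 0.394 to 5.15 CPM in KO (3.65 ± 0.29, adjusted p = 6.72e-10). Fzd5 rose in both genotypes, by 1.02 ± 0.10 in WT (adjusted p = 1.66e-07) and 1.17 ± 0.10 in KO (adjusted p = 2.33e-08). Ror1, a receptor for WNT5A, fell in both, by 1.25 ± 0.15 on the log2 scale in WT (adjusted p = 2.27e-07) and by 1.65 ± 0.15 in KO (adjusted p = 6e-09). Fzd4 and Fzd9 had lower responses in KO. Fzd4 averaged 89.4 CPM before and 88.8 CPM after senescence in WT and fell from 79.1 to 33.2 CPM in KO (interaction -1.25 ± 0.23, adjusted p = 0.0044). Fzd9 rose from 14.2 to 24.7 CPM in WT (adjusted p = 0.0154) and fell from 13.5 to 6.01 CPM in KO (interaction -1.97 ± 0.35, adjusted p = 0.0035).

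R-spondins are secreted agonists that bind LGR4 to LGR6 and keep Frizzled receptors on the cell surface. Of 6 tested genes of this axis, 5 rose and 1 fell in WT (29.2% and 27.0% of all genes), and 3 rose and 1 fell in KO (28.5% and 28.6% of all genes), with medians of 1.80 and 0.53. Rspo3 rose in both genotypes, from 0.420 to 4.05 CPM in WT (log2 fold change 3.26 ± 0.35, adjusted p = 7.86e-08) and from 1.03 to 4.63 CPM in KO (2.18 ± 0.30, adjusted p = 2.6e-06). Rspo2 rose from 0.470 to 2.89 CPM in WT (adjusted p = 1.49e-07) and from 2.32 to 3.55 CPM in KO (adjusted p = 0.0308), and Rspo1 rose from 0.582 to 2.08 CPM in WT (adjusted p = 4.47e-05) beside 0.695 and 0.957 CPM in KO (adjusted p = 0.25). The interactions were -2.01 ± 0.38 for Rspo2 (adjusted p = 0.000881), -1.38 ± 0.46 for Rspo1 (adjusted p = 0.0363) and -1.48 ± 0.40 for the receptor Lgr5 (adjusted p = 0.0116). In control cells 4 of the 6 genes were higher in KO than in WT on p, beside 8.07% of all genes. They were Rspo2, Lgr5, Rspo3 and Lgr4 (adjusted p = 1.72e-05, 0.0108, 0.0388 and 1.08e-07). Lgr6 was lower (adjusted p = 0.0135), beside 4.96% of all genes. Lgr4 fell in both genotypes, from 44.2 to 26.2 CPM in WT (adjusted p = 3.22e-07) and from 86.0 to 28.7 CPM in KO (adjusted p = 3.71e-12). Lgr6 rose from 16.3 to 26.3 CPM in WT (adjusted p = 0.0018) and from 9.98 to 20.8 CPM in KO (adjusted p = 7.8e-05).

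Of 16 cytoplasmic and nuclear transducers, 3 rose and 6 fell in WT (29.2% and 27.0% of all genes) and 2 rose and 9 fell in KO (28.5% and 28.6% of all genes), with medians of -0.12 and -0.19. Pygo1, a nuclear co-factor of β-catenin, was the 1 gene called, in WT, where it rose from 11.6 to 29.3 CPM (log2 fold change 1.34 ± 0.12, adjusted p = 3.73e-08). It also rose in KO, from 14.0 to 25.5 CPM (adjusted p = 7.62e-06). Of 11 tested further targets, 7 rose and 1 fell in WT (29.2% and 27.0% of all genes) and 7 rose and none fell in KO (28.5% and 28.6% of all genes), and the list shares Notum and Lgr5 with lists above. The median over the 11 was 1.31 in WT and 0.48 in KO. Myc, the 1 that fell in WT (69.4 to 48.9 CPM, adjusted p = 0.000576), rose in KO (54.6 to 71.0 CPM, adjusted p = 0.00452). Nkd2, a feedback inhibitor that binds Dishevelled, rose from 2.98 to 10.4 CPM in WT (log2 fold change 1.81 ± 0.14, adjusted p = 4.55e-10) and from 9.63 to 19.6 CPM in KO (1.02 ± 0.12, adjusted p = 1.99e-07). Nkd1, of the same family, rose from 0.828 to 2.37 CPM in WT (adjusted p = 0.000237) and from 1.80 to 3.32 CPM in KO (adjusted p = 0.00838). Ccnd1, which encodes cyclin D1 and responds to many pathways besides this one, rose from 267 to 711 CPM in WT (1.41 ± 0.06, adjusted p = 1.08e-13) and from 261 to 1041 CPM in KO (2.00 ± 0.07, adjusted p = 6.44e-16). In the interaction, 2 of the 11 targets were higher in KO on p and 2 were lower, beside 9.24% and 11.7% of all genes. Higher were Myc (0.88 ± 0.14, adjusted p = 0.000633) and Ccnd1 (0.58 ± 0.09, adjusted p = 0.000143). Lower were Nkd2 (-0.78 ± 0.18, adjusted p = 0.00445) and Lgr5. Exons of Notum, Wnt5a, Wnt11, Fzd5, Rspo3 and Ccnd1 also overlap other annotated genes, so their counts are uncertain.

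**Figure D4:**
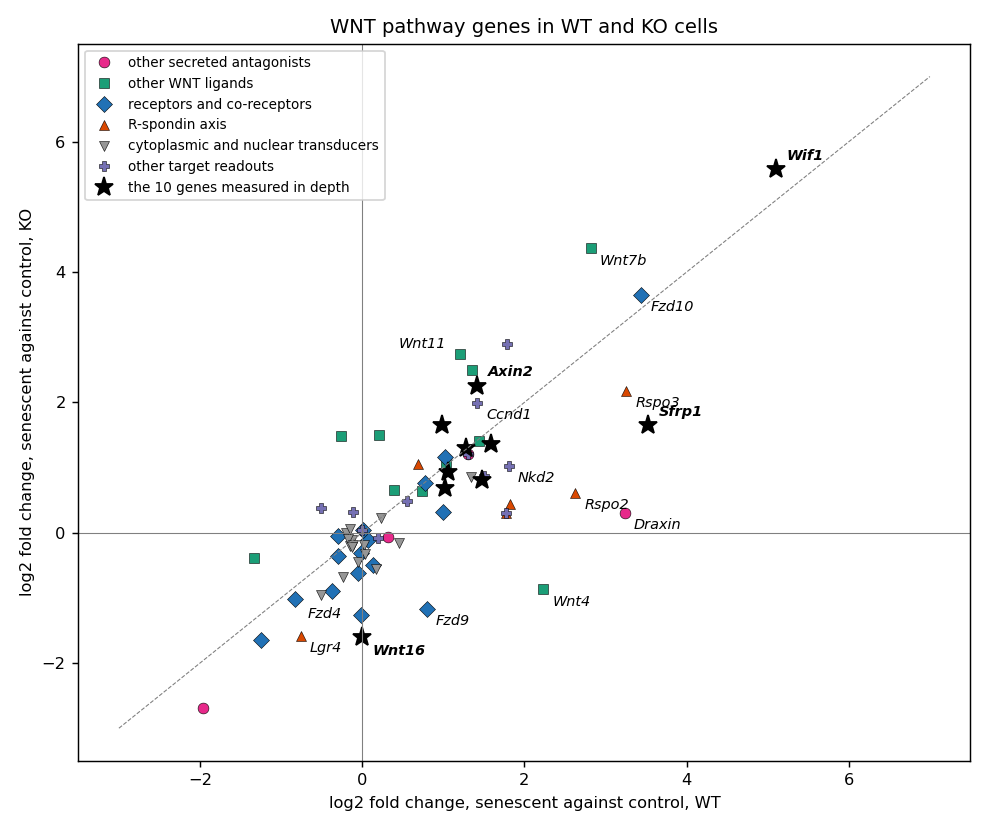
Log2 fold change of senescent against control cells in WT (x axis) and KO (y axis) for the 10 genes (stars) and for the tested genes of 6 pathway lists (other symbols). The dashed line marks equal change, and 3 ligands with 3 reads or fewer over a control group (Wnt1, Wnt3 and Wnt6) are left out because their fold is set by the prior count. Wif1 sits at 5.10 and 5.59, Sfrp1 lies below the line at 3.52 and 1.66, and Wnt16 and Wnt4 have positive or near-0 values in WT and negative values in KO.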

How the data were processed

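Poly(A) RNA of MAFs was sequenced in 12 libraries, 3 in each of 4 groups, which were assigned from the deposited descriptions. The authors deposited raw integer counts of reads per gene, in a table for each genotype. Per the authors' methods and the submitters' processing notes, base calls were converted with bcl2fastq 2.17, Trimmomatic 0.36 trimmed the reads, STAR 2.5.2b aligned them to GRCm38, and featureCounts assigned uniquely mapped reads to exons, which lowers counts of genes with near-identical copies. Use of strand in counting and the annotation release were not given in the sources used here. Of 49315 identifiers, 49056 matched GENCODE M21.

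In R 4.3.3, edgeR 4.0.16 (with limma 3.58.1) fitted all 12 libraries with 1 mean per group, TMM scaling, filterByExpr (17416 genes kept) and robust quasi-likelihood F-tests, with Benjamini-Hochberg adjustment over all genes tested. Every adjusted p comes from this fit unless DESeq2 1.42.0, a library left out or another alternative setting is named. Each such alternative was a separate fit with its own adjustment. A call needed an adjusted p under 0.05 and a log2 fold change over 1 in size, the thresholds of the study's methods, where DESeq2 was used. The SE is the absolute log2 fold change divided by the square root of F. CPM used TMM-scaled totals, and CPM per kb divided them by merged exon length.

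Genes named were the 10 members, the nearest by Pearson r of log2 CPM (prior count 2) to each, and, from each pathway list, called interaction genes and up to 3 called genes with the largest change in each senescence comparison, if their mean was at least 1 CPM. Dkk1, Dkk4, Sost, Cer1, Sfrp5, Igfbp4, Wnt5a, Wnt5b, Myc and Wnt1 were added after their values were seen. Members and lists were chosen with earlier results of these data known. Libraries of a group differed by more than counting noise (chi-square per gene 3.22 to 19.8), so none was a repeat sequencing of another. This does not tell whether they came from separate cultures or animals. Alternatives were DESeq2's Wald test, its size factors, library totals, no count filter, the adjusted p alone, a replicate block and leaving out each library.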

Additional observations from a re-analysis of the deposited data

Results flagged for a closer look

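The senescence response differed between WT and KO cells, by the interaction test of edgeR's fit, for 4 of the 10 genes. For Sfrp1 the KO response was 1.66 on the log2 scale and the WT response 3.52 (interaction -1.87, adjusted p = 0.00126), with an increase in 3 of 3 senescent libraries over all control libraries in each genotype. For Dkk3 the responses were 0.80 and 1.47 (interaction -0.67, adjusted p = 0.0049). For Wnt16 they were -1.59 in KO and -0.01 in WT (interaction -1.59, adjusted p = 0.000199), and 3 of 3 KO senescent libraries were below all other libraries. For Axin2 they were 2.26 and 1.42 (interaction 0.84, adjusted p = 0.00379). When libraries were left out 1 at a time, the interaction lay between -2.04 and -1.70 for Sfrp1, -0.77 and -0.60 for Dkk3, -1.82 and -1.44 for Wnt16, and 0.71 and 1.00 for Axin2, and the highest adjusted p over these fits was 0.0214, for Dkk3.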

How the results depend on the processing

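Of 610 values of the 10 genes recomputed under alternatives, 569 kept their direction and their side of the threshold, 11 lost and 3 gained significance, and 27 changed sign, none of them past the threshold in the reported fit. With library totals, the median of all genes moved to 0.19 in WT and 0.15 in KO senescence, Wnt16 in WT was 0.16 and Lef1 in KO against WT senescent cells -0.027. By the adjusted p alone, 9795 genes were called in WT senescence, 9947 in KO, 3639 in the interaction, 2269 between control and 4130 between senescent genotypes, and 4 of the 10 genes in each of these last 3. Without 1 library, genes called between control genotypes went from 283 (without WT control library 1) to 753 (without WT control library 3), beside 442. The signs of these values changed when libraries were left out: Wnt16 in WT senescence (-0.12 to 0.13), Dkk2 (-0.12 to 0.21) and Lef1 (-0.30 to 0.056) in the interaction, Lef1 between senescent genotypes (-0.079 to 0.14), and Wif1 (-0.63 to 0.089), Sfrp2 (-0.27 to 0.12), Sfrp4 (-0.81 to 0.20) and Lef1 (-0.048 to 0.31) between control genotypes. The cause was not tested. The genes with the fewest reads on average had 6 to 61 reads a library (Sfrp4) and 27 to 93 (Lef1).

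Over all genes tested, replicate numbers were not shown to pair the libraries. Deviations from group means correlated at -0.125 to 0.108 for the same number and at -0.125 to 0.173 for different numbers. Not every library correlated best with its own number. For Sfrp1, Sfrp2 and Dkk3, however, library 2 was the highest of its group in all 4 groups, which held for none of the other members. In WT senescence a replicate block lowered the SE from 0.196 to 0.133 for Sfrp1, from 0.258 to 0.132 for Sfrp2 and from 0.101 to 0.0694 for Dkk3. With a replicate block, 2961 genes were called in WT senescence, 3205 in KO, 579 in the interaction, 450 between control and 604 between senescent genotypes. Of 50 values of the 10 genes, 48 kept their call on p under the block, Sfrp4 in WT senescence reached 0.99 (adjusted p = 0.0515) and Sfrp2 between senescent genotypes -0.43 (adjusted p = 0.0465).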

Other observations

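Within groups, several of the genes deviated together. For Sfrp1, Sfrp2 and Dkk3 the deviations went with replicate number, as library 2 was the highest of its group in every group. The part of a replicate effect in these correlations was not tested. Over the 12 libraries, the deviation of log2 CPM from the group mean in Dkk3, the divergent DKK family member, correlated with that in Sfrp2 at r = 0.986, with Frzb at 0.865, with Sfrp1 at 0.833 and with Wnt16 at 0.661, and with that in Dkk2 at -0.94. Wif1 and Sfrp4 had correlations with Dkk3 of 0.425 and 0.187, and the readouts Axin2 and Lef1 of -0.442 and -0.3. In KO control library 1, for example, Sfrp2 was at 32.2 CPM and Dkk3 at 195 CPM, the lowest of their group, and Dkk2 was at 10.0 CPM, the highest. In WT control library 2, Sfrp2 (60.1 CPM) and Dkk3 (176 CPM) were the highest of their group and Dkk2 (1.59 CPM) was the lowest. This was chosen after the values were seen, all genes of a library share its depth and scaling, and it is a description of these 12 libraries.

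Of the 65 tested genes in the 6 pathway lists, 31 rose and 15 fell with senescence in WT, beside 29.2% and 27.0% of all genes tested, and 28 rose and 21 fell in KO, beside 28.5% and 28.6%. In the interaction 6 were higher in KO, near the 9.24% of all genes, and 20 were lower, beside 11.7%.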
